A study of Mus musculus with 6 samples.

Results

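The genes described here place, carry, read or remove the phosphate on the translation factor eIF2, or act beside those steps. They comprise the 4 eIF2alpha kinases Eif2ak1, Eif2ak2, Eif2ak3 and Eif2ak4, the mitochondrial protease gene Oma1, the eIF2alpha gene Eif2s1, the phosphatase subunit gene Ppp1r15b, the eIF2B subunit genes Eif2b1 and Eif2b5, and the cap-binding inhibitor gene Eif4ebp1. They were taken by symbol from a table of 26199 genes, and all 10 were present. Bulk RNA sequencing of whole hearts of mouse embryos at embryonic day 12 compared 3 Ctrl libraries (Mrps5 fl/fl) with 3 cKO libraries (Mrps5 fl/fl; cTNT-Cre). By these labels both alleles of Mrps5, which encodes a protein of the small mitochondrial ribosomal subunit, were floxed in both groups, and only cKO embryos carried Cre. The study's supplementary figure legend on these hearts writes Mrps5 fl/+ for the mutants, and its main text fl/fl. Cre was driven by the cardiac troponin T promoter, which is active in cardiomyocytes, so the other cells of the heart kept the gene. Controls were littermates, and each library was a pool of hearts from several embryos.

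Phosphorylated eIF2alpha blocks eIF2B, the complex that reloads eIF2 with GTP, so that most translation slows while a few mRNAs such as Atf4 are translated better. Each kinase senses another stress, and in mitochondrial stress the inner membrane protease OMA1 cleaves DELE1, which then reaches the cytosol and activates the kinase HRI. These steps are set largely by phosphorylation and cleavage of proteins, whereas the data here are levels of mRNA.

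Values are FPKM, fragments scaled by transcript length and by the number of mapped fragments, summed over the transcripts of a gene. Mrps5 was examined first. Its FPKM was 9.65, 11.4 and 10.4 in Ctrl replicates 1 to 3, 5.28 and 7.41 in cKO replicates 1 and 2, and 10.4 in the library labelled cKO replicate 3. That last library lay within the Ctrl range, so its label was not borne out by this gene, although a sum over transcripts also counts those that lack the floxed part. The cKO libraries are named by their labels throughout. Markers of 2 cell types differed between libraries. Cardiomyocyte genes made up 2.29% to 2.75% of summed FPKM in Ctrl and 1.68% to 2.09% in cKO libraries, with 12 of 12 markers lower in mean. All cKO values lay below all Ctrl values for 9 of them, beside 13.0% of all genes tested. Myh6 overlapped, with nearly equal means of 663 FPKM in Ctrl and 661 FPKM in cKO hearts. Erythroid genes made up 12.3%, 13.3% and 12.0% in Ctrl replicates 1 to 3 and 23.5%, 10.8% and 22.0% in cKO replicates 1 to 3, with 17 of 18 markers higher in mean. The high erythroid shares were thus confined to cKO replicates 1 and 3, and no erythroid marker was above all Ctrl values in all 3 cKO libraries. Among markers of endothelial, epicardial, macrophage and mesenchymal cells, only the endothelial gene Emcn, higher in cKO hearts, had an unadjusted p under 0.05. In such bulk samples, fewer cells of a type and less RNA per cell cannot be told apart. The number of reads per library is not in the table, and low values gave a relative depth of 1.15 to 1.62 for the other 5 libraries against Ctrl replicate 1.

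Groups were compared with limma on log2(FPKM + 1), a scale that understates changes of low genes, over the 13262 genes that reached 1 FPKM in 3 or more libraries. All 10 genes passed that filter. None of them reached a Benjamini-Hochberg adjusted p under 0.05, a threshold met by 11 genes or 0.0829% of those tested, 0.0528% higher and 0.0302% lower. At an unadjusted p under 0.05 stood 3 of the 10 genes, beside 15.0% of all genes. These were Ppp1r15b, Eif4ebp1 and Eif2ak1, all higher in cKO hearts, as were 5.58% of all genes, and none of the 10 was lower at that level, as were 9.43% of all genes. Over all genes 740 were higher and 1251 lower at that level, and with FPKM rescaled without erythroid and mitochondrial DNA genes 546 and 1515. With that rescaling 4 of the 10 genes stood at that level, the same 3 higher and Eif2ak2 lower. Leaving out Ctrl replicate 1 or cKO replicate 1 reduced the count among the 10 genes from 3 to 1, Ppp1r15b, and leaving out the library labelled cKO replicate 3 reduced it to 2, Ppp1r15b and Eif4ebp1. The groups did not overlap for 4 of the 10 genes, beside 20.8% of all genes. The 3 cKO values lay above all Ctrl values for Ppp1r15b, Eif2b5 and Eif4ebp1, where 7.74% of all genes did so, and below them for Eif2ak2, where 13.0% did so. The median log2 difference of the 10 genes was 0.083, beside -0.021 over all genes tested. With 3 libraries a group, the p-values measure the spread between these pools of embryos.

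**Figure D1:**
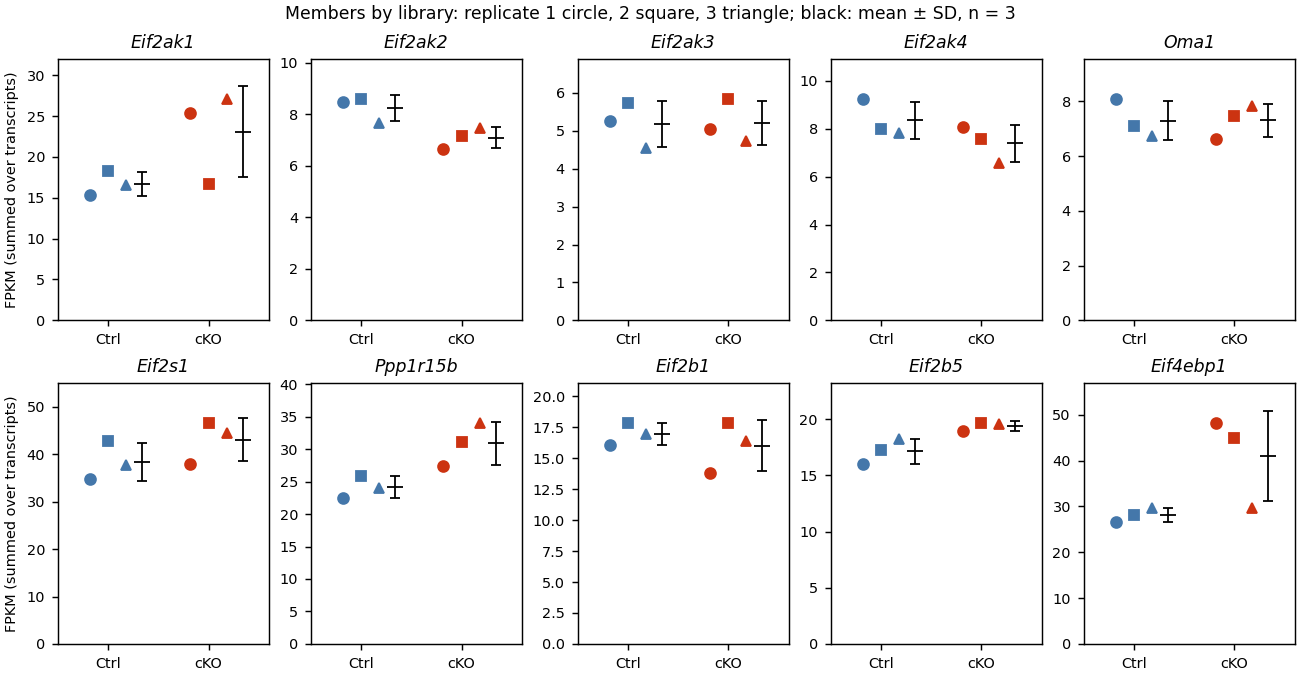
FPKM of each of the 10 genes (vertical axis from 0, a separate scale for each gene) in the Ctrl (blue) and cKO (red) libraries, with the mean and SD (n = 3) in black and the replicate shown by the symbol. The cKO values of Eif2ak1 fell apart into 25.4 and 27.1 in replicates 1 and 3 and 16.7 in replicate 2, while those of Ppp1r15b and Eif2b5 all lay above the Ctrl values.

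In Ctrl hearts the highest of the 10 mean levels, on the per-length FPKM scale, was that of Eif2s1, followed by Eif4ebp1, Ppp1r15b, Eif2b5, Eif2b1, Eif2ak1, Eif2ak4, Eif2ak2, Oma1 and Eif2ak3. Among neighbours in that order, the Ctrl values overlapped between Eif2b5 and Eif2b1, Eif2b1 and Eif2ak1, Eif2ak4 and Eif2ak2, and Eif2ak2 and Oma1. Eif2ak1 was thus the most abundant kinase mRNA of the 4 in Ctrl hearts, and Eif2ak3 the least.

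Eif2ak1 (ENSMUSG00000029613) encodes HRI, the heme-regulated inhibitor, which is abundant in red cell precursors, where it couples globin synthesis to heme, and which is also the kinase reached by the OMA1 and DELE1 relay. Its FPKM was 15.3, 18.3 and 16.6 in Ctrl replicates 1 to 3 and 25.4, 16.7 and 27.1 in cKO replicates 1 to 3. Replicates 1 and 3 of the cKO group were above every Ctrl library, and replicate 2 was among them. The mean was 16.7 ± 1.47 (SD, n = 3) in Ctrl and 23.1 ± 5.58 (SD, n = 3) in cKO hearts, a log2 difference of 0.42 (95% confidence interval 0.028 to 0.80). The unadjusted p was 0.0384 and the adjusted p 0.308 from limma. The unadjusted p rose above 0.05 with quantile normalization (0.0554), without a filter (0.0610), with the most abundant transcript of each gene (0.0625) and without single libraries other than Ctrl replicate 2 or cKO replicate 2 (0.0793 to 0.121).

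The libraries with high Eif2ak1 were those with high erythroid markers. In cKO replicate 2, where the erythroid share was 10.8%, the lowest of the 6 libraries, Eif2ak1 differed from the Ctrl mean by 0.0022 on the log2 scale, a value of 1 library chosen after the data were seen and given without a test. Without that library the log2 difference was 0.62, with an adjusted p of 0.05002, just above the threshold. With the mean level of the erythroid markers as a covariate it was 0.10 (standard error 0.11, adjusted p = 0.767 from limma). None of the 18 erythroid markers in the table was at 0 in any library, and 8 of them were higher in cKO hearts at an unadjusted p under 0.05.

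Among the genes whose log2 levels followed Eif2ak1 most closely over the 6 libraries were Xk and Tal1, with a Pearson r of 0.996 and 0.994. Xk encodes a red cell membrane protein, and Tal1 encodes a transcription factor of blood development. Xk, for example, had an FPKM of 11.1, 15.1 and 12.6 in Ctrl replicates 1 to 3 and 24.2, 13.5 and 28.8 in cKO replicates 1 to 3. An r above 0.95 with Eif2ak1 was reached by 124 of 13261 genes, among them 10 of the 18 erythroid markers and none of 21 genes of the ATF4 pathway listed further on. These values are a description over 6 libraries that fall into separate clusters, and share library, depth and tissue composition.

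The 250 bases upstream of the RefSeq start of Eif2ak1, at chr5:143817542-143817791 of GRCm38.p6 on the plus strand, are shown because Eif2ak1 was the kinase whose mRNA moved with erythroid markers. The first of 2 RefSeq starts of Eif2ak4, with upstream bases at chr2:118388367-118388616 on the plus strand, is the only other start of a member with the same CACACCC motif. Capitals mark CACACCC, the core of the CACCC box that KLF-type factors can bind, and CCAAT, the core of the CCAAT box, each searched on both strands.
Eif2ak1: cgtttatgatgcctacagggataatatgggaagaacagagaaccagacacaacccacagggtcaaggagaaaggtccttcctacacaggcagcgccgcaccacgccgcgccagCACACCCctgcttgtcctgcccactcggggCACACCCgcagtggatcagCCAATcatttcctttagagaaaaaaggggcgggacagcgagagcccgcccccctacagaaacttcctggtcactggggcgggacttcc
Eif2ak4: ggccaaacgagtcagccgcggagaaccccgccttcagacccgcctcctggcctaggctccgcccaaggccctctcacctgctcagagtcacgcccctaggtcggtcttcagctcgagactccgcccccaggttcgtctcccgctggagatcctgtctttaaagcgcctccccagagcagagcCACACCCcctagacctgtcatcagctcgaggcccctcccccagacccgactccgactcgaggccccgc
In Eif2ak1, CACACCC began 137 and 107 bases before the start and CCAAT 88 bases before it, without overlap. Of 32851 RefSeq promoters of the same length, 6.93% held CACACCC and 33.8% held CCAAT. Promoters were found for 8 of the 10 genes, and CCAAT was also present in those of Eif2ak3 and Eif2b5. The GATA motifs AGATAA and TGATAA, held by 9.99% and 7.94% of all promoters, were in none of the members' windows. Neither was the amino acid response motif TGATGNAA, held by 3.45%. The interferon response element, held by 2.98%, was in that of Eif2s1. A match of letters is a description and not a site of binding.

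In the GENCODE M21 annotation Eif2ak1 overlaps Aimp2 and Ankrd61 on the opposite strand. The library kit keeps strand, but whether strand was used in quantification is not given in the sources used here. Aimp2 had an FPKM of 17.4, 18.3 and 20.02 in Ctrl and 20.7, 19.2 and 21.8 in cKO replicates 1 to 3. Its highest value stood in the same library as that of Eif2ak1, and its cKO replicate 2 lay within the Ctrl range. Ankrd61 stayed at or under 0.227 FPKM in every library.

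Eif2ak2 (ENSMUSG00000024079) encodes PKR, which senses double-stranded RNA. Its FPKM was 8.45, 8.59 and 7.66 in Ctrl replicates 1 to 3 and 6.65, 7.17 and 7.46 in cKO replicates 1 to 3. All cKO values lay below all Ctrl values, by a small margin between Ctrl replicate 3 and cKO replicate 3. The log2 difference was -0.19 (95% confidence interval -0.40 to 0.020), and the adjusted p from limma was 0.376. With the rescaling it was -0.22, at an unadjusted p of 0.0493 from limma. Eif2ak2 is itself known as an interferon-induced gene. Of 14 other interferon-induced genes, 5 passed the filter and 9 were too low to test, including Isg15, Ifit1 and Mx1. None of the 5 reached an unadjusted p under 0.05, and their median log2 difference was -0.11. The groups overlapped for each of them.

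Eif2ak3 (ENSMUSG00000031668) encodes PERK, which senses unfolded proteins in the endoplasmic reticulum. It was at 5.26, 5.74 and 4.53 FPKM in Ctrl replicates 1 to 3 and at 5.05, 5.84 and 4.73 FPKM in cKO replicates 1 to 3. The groups covered nearly the same range. The log2 difference was 0.0069, and its 95% confidence interval of -0.26 to 0.27 bounds a change in either direction. The sign of this difference changed when FPKM were rescaled without erythroid and mitochondrial DNA genes, on the most abundant transcript and without single libraries.

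Eif2ak4 (ENSMUSG00000005102) encodes GCN2, which senses uncharged transfer RNA and stalled ribosomes. Its summed FPKM was 9.25, 7.97 and 7.83 in Ctrl replicates 1 to 3 and 8.06, 7.58 and 6.55 in cKO replicates 1 to 3. The groups overlapped, and the log2 difference was -0.16 (95% confidence interval -0.40 to 0.091, adjusted p = 0.539 from limma). It was -0.089 without Ctrl replicate 1 and -0.082 without cKO replicate 3. This sum hid rows that moved in opposite directions. Eif2ak4-201 (ENSMUST00000005233), with 39 exons and a coding length of 4944 bases the transcript with the highest FPKM, was at 3.72, 3.85 and 3.58 FPKM in Ctrl and at 4.23, 5.26 and 4.34 FPKM in cKO replicates 1 to 3. All of its cKO values lay above all Ctrl values. It made up 40.2%, 48.3% and 45.6% of the gene's FPKM in Ctrl replicates 1 to 3 and 52.5%, 69.4% and 66.2% in cKO replicates 1 to 3. The mean share was 44.7% ± 4.11 (SD, n = 3) in Ctrl and 62.7% ± 8.98 (SD, n = 3) in cKO hearts, 18.004 percentage points higher. The exact two-sided permutation test gave p = 0.1, the smallest that 3 against 3 libraries allow, and 0.4 after adjustment over the 4 genes with several transcript rows.

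The share of Eif2ak4-204, which starts 23728 bases downstream and has 34 exons, was 35.6%, 27.2% and 29.8% in Ctrl and 31.2%, 16.2% and 17.4% in cKO replicates 1 to 3, so replicate 1 of the cKO group overlapped Ctrl. Eif2ak4-207, a short transcript with 11 exons, had a share of 8.82%, 11.1% and 16.0% in Ctrl and 7.16%, 4.54% and 6.88% in cKO replicates 1 to 3, all cKO values below all Ctrl values. When each gene was represented by its most abundant transcript in place of the sum, the log2 difference of Eif2ak4 was 0.25 (adjusted p = 0.420 from limma), opposite in sign to that of the sum. Transcripts of a gene share most of their reads, so the split between rows is an estimate. The leading transcripts of Eif2ak3, Eif2b1 and Eif2b5 held a mean of 92.9%, 97.2% and 99.3% in Ctrl and 89.5%, 96.7% and 98.9% in cKO hearts, and their groups overlapped. The other 6 genes had 1 transcript row each.

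**Figure D2:**
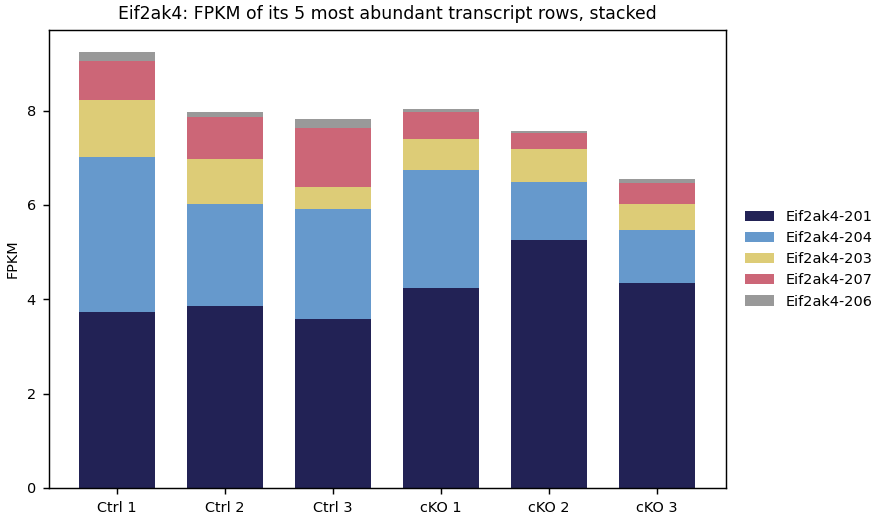
Stacked bars of the FPKM (from 0) of the 5 most abundant transcript rows of Eif2ak4 in each of the 6 libraries. The lowest block, Eif2ak4-201, reached 3.58 to 3.85 FPKM in Ctrl and 4.23 to 5.26 FPKM in cKO libraries, while the whole bars overlapped between the groups.

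Because FPKM is per length, the kinase mRNAs can be set side by side as shares of their sum, which do not depend on the scaling of a library. The sum of the 4 kinases was 38.3, 40.6 and 36.6 FPKM in Ctrl replicates 1 to 3 and 45.2, 37.3 and 45.8 FPKM in cKO replicates 1 to 3. Without Eif2ak1 it was 22.96, 22.3 and 20.02 FPKM in Ctrl and 19.8, 20.6 and 18.7 FPKM in cKO replicates 1 to 3, and the groups overlapped. Eif2ak1 held a mean of 43.4% ± 2.98 (SD, n = 3) of the sum in Ctrl and 53.4% ± 7.58 (SD, n = 3) in cKO hearts (exact permutation p = 0.3). The share of Eif2ak2 was 22.1%, 21.2% and 20.9% in Ctrl replicates 1 to 3 and 14.7%, 19.2% and 16.3% in cKO replicates 1 to 3. It was the only kinase share without overlap between the groups (exact permutation p = 0.1, adjusted p = 0.4 over the 4 kinases). It was lowest in the cKO libraries with the most Eif2ak1, whose level enters the same sum. Mean shares went from 13.4% to 12.4% for Eif2ak3 and from 21.7% to 17.5% for Eif2ak4, with exact permutation p of 0.6 and 0.2. The difference for Eif2ak3, -1.04 percentage points, was -2.68 without cKO replicate 2 and -0.0079 without cKO replicate 3, and that for Eif2ak4, -4.25 points, was -2.66 without cKO replicate 3.

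Among 9 genes that restrain, activate or assist the kinases, 2 were higher and 7 lower in mean in cKO hearts, with a median log2 difference of -0.053 beside -0.021 over all genes. The count of those higher depended on the setting, at 5 without cKO replicate 1, 4 without Ctrl replicate 1, 4 with the erythroid covariate and 1 when rescaled. Nck1, an adaptor known to act with PERK and eIF2alpha phosphatase, was the only one at an unadjusted p under 0.05. It was at 11.9, 15.6 and 11.8 FPKM in Ctrl and at 8.57, 9.24 and 11.2 FPKM in cKO replicates 1 to 3, a log2 difference of -0.40 (adjusted p = 0.242 from limma). The cKO values lay below all Ctrl values. Gcn1l1, whose product GCN1 is needed to activate GCN2, was above all Ctrl values in every cKO library, at a log2 difference of 0.14 (adjusted p = 0.457). The groups overlapped for the other 7. Their log2 differences were 0.0044 for the GCN2 inhibitor gene Impact, -0.083 for the PERK and PKR inhibitor gene Dnajc3, -0.053 for the PKR activator gene Prkra, -0.015 for Tarbp2, whose product binds PKR, -0.077 for the chaperone gene Hspa5, -0.089 for the RNA-editing enzyme gene Adar and -0.021 for the Dele1 gene 0610009O20Rik.

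Oma1 (ENSMUSG00000035069) was at 8.09, 7.10 and 6.72 FPKM in Ctrl replicates 1 to 3 and at 6.64, 7.47 and 7.83 FPKM in cKO replicates 1 to 3. The groups overlapped, with means of 7.30 and 7.31 FPKM. The log2 difference was 0.0024 (95% confidence interval -0.24 to 0.24), and its sign changed with the rescaling and when single libraries were left out. Dele1, the substrate of OMA1 that carries the signal to HRI, is listed under its older symbol 0610009O20Rik and was at 19.97, 17.6 and 20.5 FPKM in Ctrl and at 17.8, 18.4 and 21.1 FPKM in cKO replicates 1 to 3. Neither gene of the relay thus differed beyond the spread between libraries.

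Of 10 genes for the relay, its substrates and other inner membrane proteases and scaffolds, 6 were higher and 4 lower in mean, with a median log2 difference of 0.018. Afg3l2, a subunit of the m-AAA protease, was the only one at an unadjusted p under 0.05. It was at 28.4, 29.0 and 28.7 FPKM in Ctrl and at 37.4, 31.1 and 37.9 FPKM in cKO replicates 1 to 3, with a log2 difference of 0.29 and an adjusted p of 0.226 from limma. All cKO values were above Ctrl, and the 2 highest stood in the cKO libraries with high erythroid markers, whose part in this difference was not tested. Phb2, a scaffold of the inner membrane, differed by 0.23 (adjusted p = 0.335) and overlapped. Stoml2, a membrane scaffold of the same protein family, differed by 0.097 (adjusted p = 0.654), and Opa1, for a fusion protein that OMA1 cleaves, by -0.0099 (adjusted p = 0.973).

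Eif2s1 (ENSMUSG00000021116) encodes eIF2alpha, the subunit that all 4 kinases phosphorylate. Its FPKM was 34.9, 42.8 and 37.7 in Ctrl replicates 1 to 3 and 38.0, 46.7 and 44.6 in cKO replicates 1 to 3. Replicates 2 and 3 of the cKO group exceeded every Ctrl library and replicate 1 did not, and the log2 difference was 0.16 (95% confidence interval -0.093 to 0.41, adjusted p = 0.539 from limma). It was 0.094 without Ctrl replicate 1, 0.10 without cKO replicate 2 and 0.25 without cKO replicate 1. Eif2s2, for eIF2beta, was at 65.8, 76.6 and 69.8 FPKM in Ctrl and at 102, 114 and 79.3 FPKM in cKO replicates 1 to 3, all cKO values above Ctrl. Its log2 difference was 0.46 (adjusted p = 0.200). The gamma subunit genes Eif2s3x and Eif2s3y differed by 0.12 and -0.18, and both overlapped. Eif2s3y, the Y-linked copy, was at 13.2, 34.6 and 9.61 FPKM in Ctrl and at 20.3, 12.1 and 12.1 FPKM in cKO replicates 1 to 3. The sex of the pooled embryos is not given in the labels, so the value of -0.18 cannot be told apart from the make-up of the pools.

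Within eIF2B, Eif2b5 (ENSMUSG00000003235) encodes the catalytic epsilon subunit. It was at 16.0, 17.2 and 18.2 FPKM in Ctrl replicates 1 to 3 and at 18.9, 19.7 and 19.6 FPKM in cKO replicates 1 to 3. The cKO values lay close together and above all Ctrl values. The mean was 17.1 ± 1.12 (SD, n = 3) in Ctrl and 19.4 ± 0.426 (SD, n = 3) in cKO hearts, a log2 difference of 0.17 (95% confidence interval -0.018 to 0.36, adjusted p = 0.376 from limma). Eif2b1 (ENSMUSG00000029388) encodes the regulatory alpha subunit. It was at 16.1, 17.9 and 17.0 FPKM in Ctrl and at 13.8, 17.9 and 16.4 FPKM in cKO replicates 1 to 3. The groups overlapped, and the log2 difference was -0.087 (95% confidence interval -0.33 to 0.16), with a sign that changed when cKO replicate 1 was left out.

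Of the remaining eIF2B subunits, Eif2b3, for the gamma subunit, was at 10.1, 13.5 and 11.5 FPKM in Ctrl and at 18.2, 14.8 and 14.8 FPKM in cKO replicates 1 to 3, all above Ctrl, with a log2 difference of 0.42 (adjusted p = 0.200 from limma). Eif2b2 and Eif2b4 differed by -0.023 and 0.11 and overlapped. Eif5, whose product is the GTPase-activating protein of eIF2, was at 73.0, 81.2 and 77.7 FPKM in Ctrl and at 62.4, 67.9 and 60.3 FPKM in cKO replicates 1 to 3, all below Ctrl, with a log2 difference of -0.28 (adjusted p = 0.207). Cdc123, for an assembly factor of eIF2, differed by -0.0034. Over these 11 genes of eIF2, eIF2B and their partners, Eif2s1, Eif2b1 and Eif2b5 included, 6 were higher and 5 lower in mean. Eif2s2 and Eif2b3 were higher and Eif5 lower at an unadjusted p under 0.05, none passed adjustment, and the median log2 difference was 0.11.

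**Figure D3:**
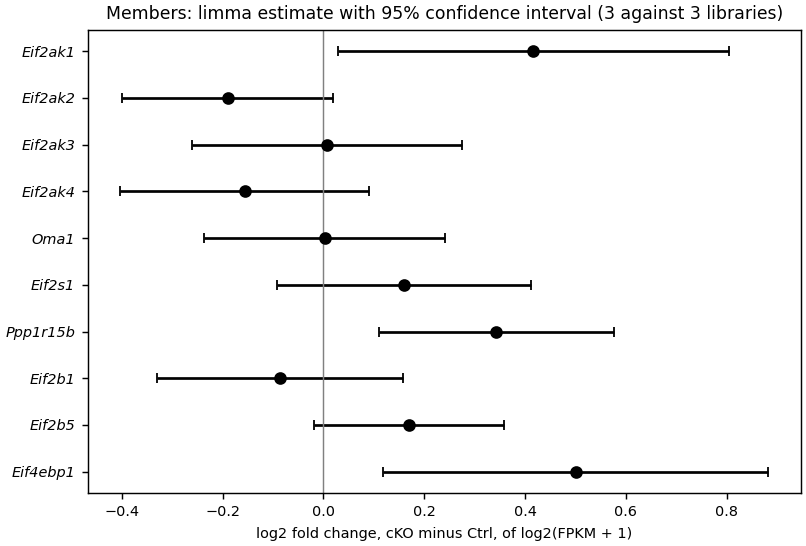
Log2 difference of cKO minus Ctrl hearts on the log2(FPKM + 1) scale (horizontal axis) for each of the 10 genes, as the limma estimate with its 95% confidence interval from 3 against 3 libraries. The intervals of Eif2ak1, Ppp1r15b and Eif4ebp1 lay above 0, those of the other 7 genes included it.

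Ppp1r15b (ENSMUSG00000046062) encodes CReP, the constitutive subunit that directs protein phosphatase 1 to eIF2alpha. Its FPKM was 22.4, 25.8 and 24.0 in Ctrl replicates 1 to 3 and 27.4, 31.1 and 34.1 in cKO replicates 1 to 3. All cKO values lay above all Ctrl values. The mean was 24.1 ± 1.69 (SD, n = 3) in Ctrl and 30.9 ± 3.34 (SD, n = 3) in cKO hearts, a ratio of 1.28 and a log2 difference of 0.34 (95% confidence interval 0.11 to 0.58). The unadjusted p was 0.00937, the lowest of the 10 genes, and the adjusted p 0.199 from limma. It was also the only one of the 10 genes at an unadjusted p under 0.05 in all 16 alternatives that kept 2 or more libraries in each group. In cKO replicate 2 alone, the cKO library with few erythroid markers, the log2 difference was 0.36, given without a test, and with the erythroid level as a covariate it was 0.34.

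Ppp1r15a encodes GADD34, the inducible partner that acts on the same phosphate and whose gene is part of the ATF4 pathway. It was at 11.8, 10.7 and 11.8 FPKM in Ctrl and at 29.0, 22.1 and 20.7 FPKM in cKO replicates 1 to 3. The cKO values were all above Ctrl, with a log2 difference of 0.99 and an adjusted p of 0.0507 from limma, just above the threshold. In Ctrl hearts Ppp1r15b had the higher FPKM of the pair in every library, and in cKO replicate 1 the order was the opposite. The catalytic subunit genes Ppp1ca, Ppp1cb and Ppp1cc differed by -0.054, -0.068 and 0.070, and each overlapped. Of the 5 phosphatase genes 3 were thus higher and 2 lower in mean, and none passed adjustment.

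Eif4ebp1 (ENSMUSG00000031490) encodes 4E-BP1, which binds the cap-binding factor eIF4E unless mTORC1 phosphorylates it, and which is also known as a target of ATF4. Its FPKM was 26.6, 28.1 and 29.6 in Ctrl replicates 1 to 3 and 48.3, 44.9 and 29.7 in cKO replicates 1 to 3. The first 2 cKO libraries stood well above Ctrl, and the library labelled cKO replicate 3, with Mrps5 at the Ctrl level, stood just above the highest Ctrl value. The mean was 28.1 ± 1.47 (SD, n = 3) in Ctrl and 41.0 ± 9.89 (SD, n = 3) in cKO hearts, a ratio of 1.46. The log2 difference was 0.50 (95% confidence interval 0.12 to 0.88), the largest of the 10 genes, with an unadjusted p of 0.0163 and an adjusted p of 0.232 from limma. Without the library labelled cKO replicate 3 it was 0.71, with an adjusted p of 0.00802 from limma, the only call of a member under any setting. That setting left out the lowest cKO value of Eif4ebp1, and it called 269 of all 13262 genes, beside 11 in the main fit. The unadjusted p of Eif4ebp1 rose above 0.05 without Ctrl replicate 1 (0.0518), without cKO replicate 1 (0.0596, log2 difference 0.37) and without cKO replicate 2 (0.0594, log2 difference 0.42). Over all settings its adjusted p ranged from 0.00802 to 0.547. In cKO replicate 2 alone, again without a test, the log2 difference was 0.66, and with the erythroid level as a covariate it was 0.66 (adjusted p = 0.309 from limma).

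Other genes of cap binding and mTORC1 numbered 9 with a testable level, and Eif4ebp3 was too low to test. With Eif4ebp1, 7 of 10 were higher and 3 lower in mean, with a median log2 difference of 0.026, and 4 were higher when FPKM were rescaled without erythroid and mitochondrial DNA genes. Rps6kb1, for the mTORC1 substrate S6 kinase, was at 22.4, 21.8 and 21.9 FPKM in Ctrl and at 17.7, 18.8 and 18.5 FPKM in cKO replicates 1 to 3, all below Ctrl. Its log2 difference was -0.25 (adjusted p = 0.204 from limma). Eif4b, for an initiation factor that assists the helicase eIF4A, differed by 0.17 (adjusted p = 0.400) with all cKO values above Ctrl. The closest relative of Eif4ebp1, Eif4ebp2, differed by 0.00093 and overlapped.

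The genes whose log2 levels followed Eif4ebp1 most closely over the 6 libraries were Cdkn1a, Ier5l and Cebpg, with a Pearson r of 0.999, 0.995 and 0.993. Cdkn1a encodes the cell cycle inhibitor p21 and Cebpg a partner of ATF4. Cdkn1a was at 6.32, 7.08 and 7.70 FPKM in Ctrl and at 19.5, 18.4 and 7.82 FPKM in cKO replicates 1 to 3, high in the same 2 libraries as Eif4ebp1. An r above 0.95 was reached by 107 of 13261 genes, among them 7 of 21 ATF4 pathway genes and none of the 18 erythroid markers. Again these are descriptions over 6 libraries that fall into clusters.

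**Figure D4:**
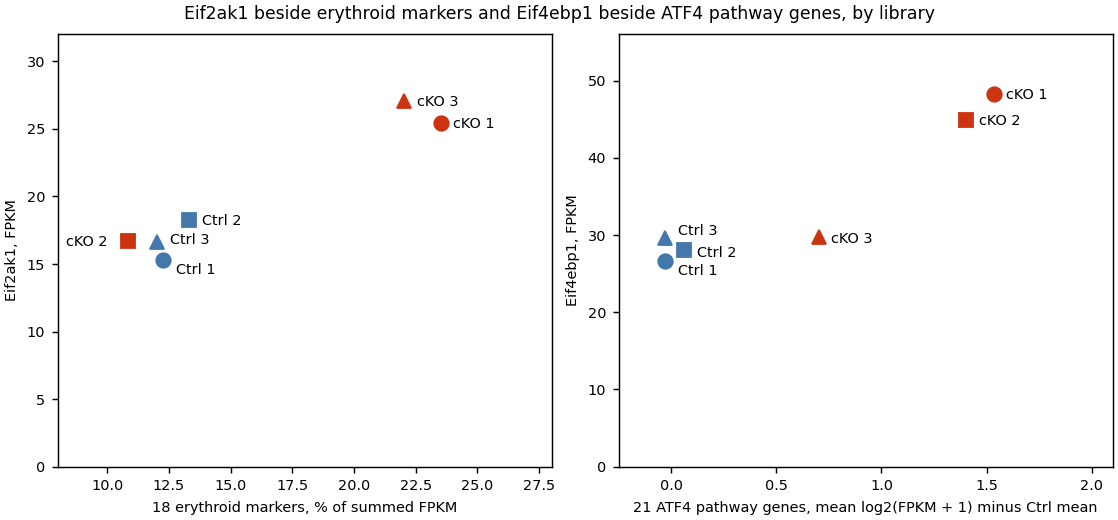
Left, FPKM of Eif2ak1 against the percent of summed FPKM held by 18 erythroid markers, and right, FPKM of Eif4ebp1 against the mean log2(FPKM + 1) of 21 ATF4 pathway genes minus the Ctrl mean, with 1 point per library (Ctrl blue, cKO red). On the left cKO replicates 1 and 3 stood apart at 25.4 and 27.1 FPKM, and on the right cKO replicates 1 and 2 at 48.3 and 44.9 FPKM.

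The downstream output was read from ATF4 itself and 25 genes known to act in its pathway, of which 23 passed the filter. This list was drawn up with earlier results of these data known and is not independent evidence of its direction. Nupr1 and Chac1 were under 1 FPKM in every Ctrl library and passed only through their cKO values, so their direction was fixed by the filter and they are left out of the counts. The other 21 were all higher in mean in cKO hearts, 20 at an unadjusted p under 0.05, and their median log2 difference was 1.19. Trib3, Slc7a5, Slc3a2, Mthfd2 and Atf4 passed adjustment. Slc3a2, for the heavy chain of an amino acid transporter that pairs with the product of Slc7a5, rose from 25.2, 26.2 and 25.4 FPKM in Ctrl to 63.6, 54.9 and 47.3 FPKM in cKO replicates 1 to 3, a log2 difference of 1.07 (adjusted p = 0.0186 from limma). The mean of the 21 genes was 1.53, 1.40 and 0.70 log2 units above the Ctrl mean in cKO replicates 1 to 3. The library labelled cKO replicate 3 was thus the lowest of the cKO group and still far above the Ctrl libraries, which lay between -0.030 and 0.060. This list had its highest means in cKO replicates 1 and 2, whereas Eif2ak1 was highest in cKO replicates 1 and 3.

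Of 13 genes of the IRE1 and ATF6 arms, which with PERK answer unfolded proteins, 7 were higher and 6 lower in mean, the median log2 difference was 0.0068, and 4 were higher with the same rescaling and 3 without cKO replicate 2. Atf6, the sensor of its arm, was at 8.90, 10.2 and 9.47 FPKM in Ctrl and at 16.5, 17.8 and 13.1 FPKM in cKO replicates 1 to 3, all above Ctrl (log2 difference 0.66, adjusted p = 0.0954 from limma). Herpud1, for a protein of endoplasmic reticulum degradation that is also a known target of ATF4, differed by 0.75 (adjusted p = 0.154), again with all cKO values above Ctrl. The other 11 genes did not reach an unadjusted p under 0.05 and their groups overlapped, among them the chaperone gene Hspa5 at 218, 262 and 235 FPKM in Ctrl and 207, 238 and 230.5 FPKM in cKO replicates 1 to 3.

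**Figure D5:**
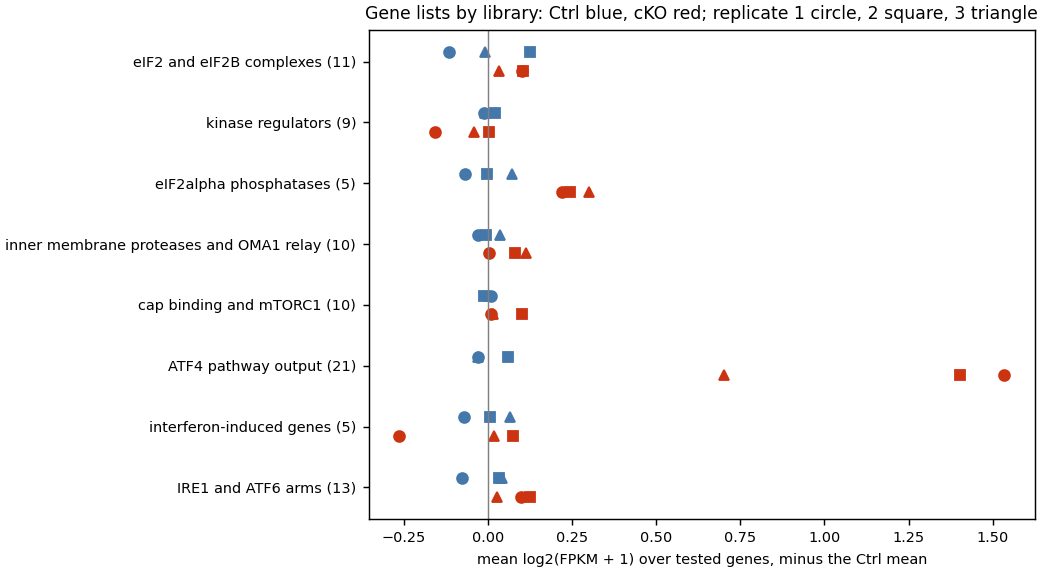
Mean log2(FPKM + 1) of the tested genes of each list (number in brackets) minus the Ctrl mean, with 1 point per library (Ctrl blue, cKO red, replicate by symbol). The 21 ATF4 pathway genes (without Nupr1 and Chac1) reached 0.70 to 1.53 in the cKO libraries, whereas the means of the kinase regulators, the eIF2 and eIF2B genes and the OMA1 relay lay between -0.16 and 0.12 in every library.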

How the data were processed

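The authors deposited 1 table of FPKM with 60776 transcript rows for the 6 libraries. Per the labels, ribosomal RNA was depleted, strand-specific libraries were made, and Bowtie2 2.2.8, HISAT2, StringTie 1.3.1, Cuffdiff 2.1.1 and the mm9 build are named in the submitters' processing notes without a role for each. The study's RNA sequencing methods, which name postnatal hearts only, instead describe poly-T selection of mRNA, HISAT2 and featureCounts. The library type of the embryonic hearts therefore rests on the labels. The annotation release is not given in the sources used here. The deposited FPKM hold no read counts, and library depth is therefore unknown.

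Rows were summed per gene identifier, 1 was added, and log2 values were compared with limma 3.58.1 (R 4.3.3, moderated with a variance trend, no covariate) and Benjamini-Hochberg adjustment over all 13262 genes that reached an FPKM of 1 in 3 or more of the 6 libraries. Shares were compared with exact two-sided permutation tests (scipy 1.17.1). The fit was tested on simulated data. Groups came from the sample labels. The study's RNA sequencing methods call genes at an adjusted p under 0.05 and its plot for the embryonic hearts draws a line at an unadjusted p of 0.05, so both counts are given. The 10 genes and all gene lists were chosen with earlier results of these data known. The genes named are the 10 members, Mrps5, the eIF2, eIF2B and kinase regulator genes, up to 3 genes with the smallest p in each list, every list gene past the adjusted threshold, and the 3 genes most like Eif2ak1 and Eif4ebp1 by Pearson r, of which some are not reported here. Genes named outside that rule, such as Aimp2 or Opa1, were chosen after their values were seen. Promoters are from RefSeq (GRCm38.p6) and overlaps from GENCODE M21, and no coordinates of the table's own build were used. Alternatives were another value added before the log (0.1 or 0.5), no filter, a mean FPKM of at least 5, rescaling without erythroid and mitochondrial DNA genes, quantile normalization, a replicate block, the erythroid level as covariate, the most abundant transcript only, no variance trend, and leaving out each library. The comparison of cKO replicate 2 alone with Ctrl was added after seeing the data, and gives values without a test.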

Additional observations from a re-analysis of the deposited data

How the results depend on the processing

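Of 398 results recomputed under an alternative, 356 kept their direction and threshold side or, for a count, stayed within 1.5 times it, among them 156 of 170 for the 10 genes. No member passed adjustment in the main fit, so for these genes this meant the same sign and still no call. The size of a difference did not enter. Eif2ak1 was kept in all 17 alternatives, although its difference went from 0.42 to 0.10 with the erythroid covariate. The 170 include cKO replicate 2 alone, a comparison added after the data were seen. The cause of the changes was not tested. Eif2ak3 went from 0.0069 to -0.021 when rescaled without erythroid and mitochondrial DNA genes, to -0.037 on its most abundant transcript, and to between -0.070 and 0.072 without single libraries. Oma1 went from 0.0024 to -0.027 when rescaled and to between -0.049 and 0.070 without single libraries. Eif2b1 went from -0.087 to 0.016 with the erythroid covariate, to 0.071 in cKO replicate 2 alone, and to between -0.17 and 0.010 without single libraries. Eif2ak4 became 0.25 on its most abundant transcript, and its share among the kinases then differed by 0.809 percentage points in place of -4.25. Eif4ebp1 lay between 0.37 and 0.71 without single libraries. The leading transcript shares of Eif2b1 and Eif2b5 moved by -1.11 to 0.240 and by -0.662 to 0.250 points without single libraries. Members at an unadjusted p under 0.05 numbered 1 to 3 without single libraries. Over all genes, the 11 at an adjusted p under 0.05 became 5 without a filter, 5 with the covariate, 4 on the most abundant transcript, 6 without a variance trend, and 5 to 269 without single libraries, 119 without cKO replicate 2 and 269 without the library labelled cKO replicate 3. The 1991 at an unadjusted p under 0.05 became 1314 at a mean FPKM of at least 5, and 1216 to 2166 without single libraries. Kinase regulators higher in mean numbered 1 when rescaled, 4 with the covariate, 4 on the most abundant transcript, and 2 to 5 without single libraries. Cap-binding and mTORC1 genes higher in mean numbered 4 when rescaled, and so did IRE1 and ATF6 genes, which numbered 3 to 8 without single libraries. Interferon-induced genes higher in mean numbered 0 at a mean FPKM of at least 5 and 1 to 3 without single libraries.

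Deviations of libraries with the same replicate number correlated at 0.215, 0.108 and 0.0892, and those with different numbers at -0.168 to 0.0488. The labels state no pairing, so the main fit left it out, although controls were littermates and a pairing remains possible. When the replicate number entered as a block, 4 genes had an adjusted p under 0.05 and 2217 an unadjusted one, each library correlated best with its own number as a hint from the data, and Ppp1r15b and Eif4ebp1 but not Eif2ak1 kept an unadjusted p under 0.05. No member passed adjustment under the block. The unknown depth limits what can be said of genes under 1 FPKM, such as most interferon-induced genes.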
